A study of Homo sapiens with 6 samples.

Results

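NF-kappaB is a family of dimeric transcription factors built from the subunits NFKB1, NFKB2, REL, RELA and RELB, which share a DNA-binding Rel homology domain. In resting cells the dimers are held in the cytoplasm by inhibitors such as NFKBIA and NFKBIE, and signals that degrade these inhibitors, or that process the NFKB2 precursor, release the dimers to the nucleus. Several of the genes the factor switches on encode its own brakes or partners, among them NFKBIA, TNFAIP3, NFKB2, RELB and TRAF1. In multiple myeloma, a malignancy of plasma cells, the pathway is a known survival route, and tumours often carry lesions in its regulators.

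These 5 subunits, together with NFKBIA, NFKBIE, TNFAIP3, BCL3 and TRAF1, were followed through every probe set that the platform annotation assigns to them. That gave 16 of the 22277 probe sets for the 10 genes. All arrays came from NCI-H929, an established human myeloma cell line, and total RNA was extracted at 24 h from cells electroporated with a small interfering RNA (siRNA). The knockdown groups received siRNA against RRM1 (siRRM1) or RRM2 (siRRM2), the large and small subunit of ribonucleotide reductase, which makes deoxyribonucleotides for DNA synthesis, and the control group received a non-targeting siRNA (scramble). Each group had 2 arrays. The labels do not say how many siRNA sequences were used per target and do not name a separate culture for each array, so p-values measure only the spread between these samples, which may be technical.

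Values are log2 signals, in which a difference of 1 is a doubling. The number of arrays limits the precision. Genes were compared through 1 probe set each, the one with the highest mean over the 6 arrays among those annotated to that gene alone, and 7936 genes whose mean reached a log2 signal of 5.44 were tested with limma, with p-values adjusted by Benjamini-Hochberg over all of them. A gene was called at an adjusted p under 0.05. NFKB1, NFKB2, REL, RELA, RELB, NFKBIA, NFKBIE, TNFAIP3 and TRAF1, 9 of the 10 members, entered this gene fit, and the lowest group mean among them was 5.85, so none passed the filter only through its high group. The 2 probe sets of the remaining member, 204907_s_at and 204908_s_at, are annotated to BCL3 and to the microRNA gene MIR8085 together and are reported by probe set. A second limma fit covered all 22277 probe sets with no filter, so that every member probe set has a test.

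Both targeted transcripts were lower on the arrays labelled with their siRNA. RRM1 had log2 signals of 8.93 and 7.99 in siRRM1 against 11.06 and 11.11 in scramble, and fell by 2.63 on the log2 scale (SE 0.26, limma adjusted p = 0.00154). RRM2 had 10.54 and 11.44 in siRRM2 against 12.78 and 12.78 in scramble, and fell by 1.79 (SE 0.25, limma adjusted p = 0.0214). Array medians lay between 6.11 and 6.16. All 11 plasma cell markers passed the filter, and in siRRM1 against scramble 2 of them, FGFR3 (log2 -0.54, limma adjusted p = 0.0172) and IRF4, fell and 0 rose, with a median change of -0.25. Of all genes tested, 7.33% were called lower and 8.22% higher in this comparison. None of the 11 overlapped between these groups, beside 59.3% of all genes without overlap. The summed linear signal of the 11 was 28336 to 29579 in siRRM1, 33066 to 35540 in siRRM2 and 33829 to 34991 in scramble. Of 5 T cell markers measured, CD3D, CD3G, CD2 and CD8A lay below the filter, and CD3E, at 5.78 to 6.23 over all arrays, passed it with no call (log2 0.13 in siRRM1 and 0.33 in siRRM2 against scramble, limma adjusted p = 0.545 and 0.228). Of 7 myeloid markers, CD14, LYZ, ITGAM and FCGR1A lay below the filter, and S100A8, S100A9 and CSF1R rose in siRRM1. S100A8 lay below the filter in the control group, with 7.88 and 9.46 in siRRM1 against 4.45 and 4.44 in scramble, so it was tested only through the groups where it is high. The summed linear signal of the 7 was 662 to 1509 in siRRM1, 338 to 702 in siRRM2 and 204 to 214 in scramble. The differences in this sum lay almost wholly in S100A8, S100A9 and CSF1R, and not in CD14, LYZ, ITGAM and FCGR1A. The part of these marker shifts in the member changes was not tested. In RNA from whole cultures, a change in the share of cells that make a transcript and a change in the amount per cell cannot be told apart. As a sign of RNA quality, the log2 difference between the 3′ and 5′ control probe sets of beta-actin was 0.030 and 0.326 in siRRM1, 0.048 and 0.051 in siRRM2 and 0.344 and 0.151 in scramble. That of GAPDH lay between -0.112 and -0.013 on all arrays. The part of these values in the member changes was not tested.

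**Figure D1:**
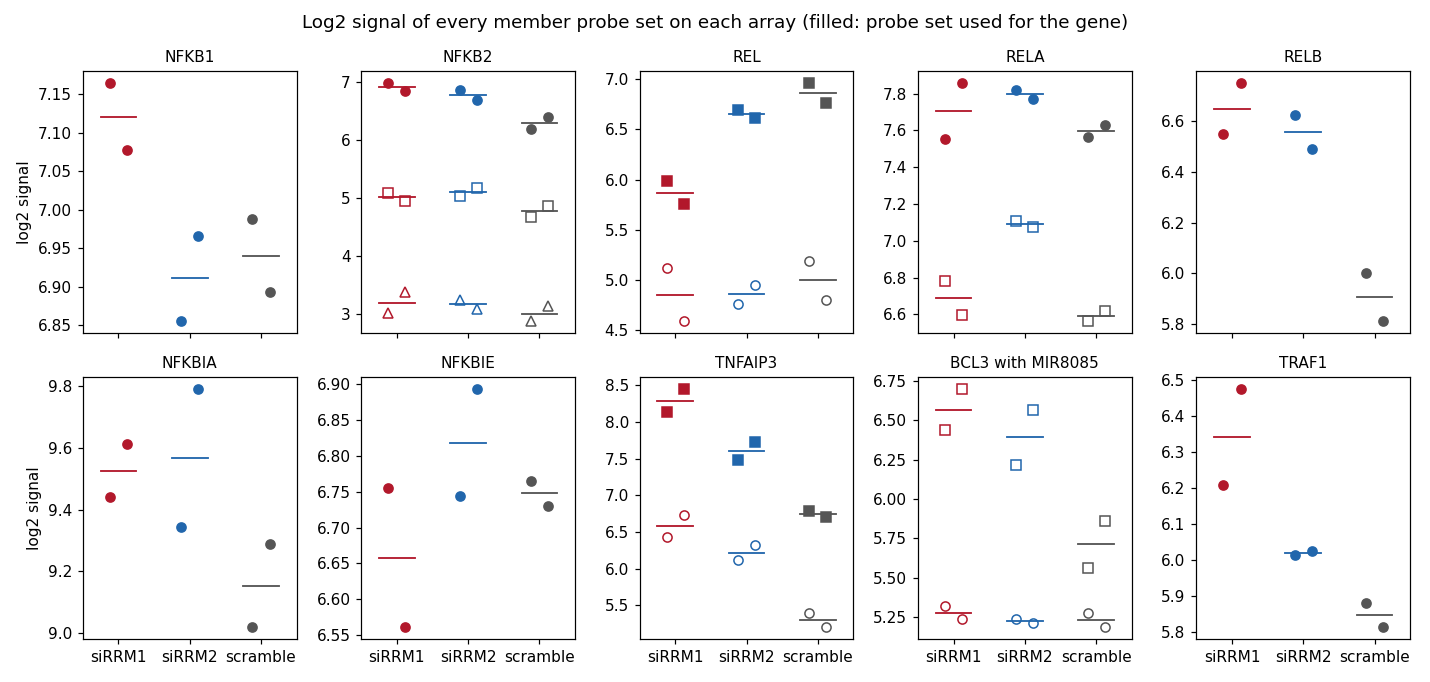
Log2 signal (vertical axis, scaled separately in each panel) of the 16 member probe sets on each array, by group. Each point is 1 array, each horizontal line a group mean, marker shapes separate the probe sets of a gene, and filled markers show the probe set used for the gene. TNFAIP3 (202644_s_at) lay at 8.13 and 8.45 in siRRM1, 7.49 and 7.73 in siRRM2 and 6.79 and 6.70 in scramble.

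The siRRM1 comparison asked what loss of the large reductase subunit does to these transcripts. TNFAIP3, RELB, NFKB2 and TRAF1 rose and REL fell, while NFKB1, RELA, NFKBIA and NFKBIE did not pass the threshold. That is 5 of 9 members called in siRRM1 against scramble, 4 higher and 1 lower, beside 15.5% of all genes tested (8.22% higher and 7.33% lower). The split over all genes was 652 higher and 582 lower as deposited, whereas median centring of the arrays gave 572 higher and 818 lower, with 5 members called in either case. The median change of the 9 was 0.37, against -0.0092 over all genes tested. The groups did not overlap for 7 of the 9, beside 59.3% of all genes, and 6 of these were higher in siRRM1, beside 28.4%. In the fit of all probe sets, 7 of 16 member probe sets were called, 6 higher and 1 lower, beside 6.49% of all probe sets. The members and pathway lists were chosen with earlier results of these data known. An excess over these shares, here or below, is therefore not an independent finding.

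The subunits moved in different directions in siRRM1. RELB, which pairs with the NFKB2 product in the non-canonical arm of the pathway, had log2 signals of 6.55 and 6.75 in siRRM1 against 6.00 and 5.81 in scramble. Both siRRM1 arrays lay above both scramble arrays, a 1.67-fold rise (log2 0.74, SE 0.11, limma adjusted p = 0.00733). NFKB2, the precursor of the p52 subunit, had 6.98 and 6.84 in siRRM1 against 6.19 and 6.38 in scramble by 207535_s_at. The groups were again apart, and NFKB2 rose 1.54-fold (log2 0.63, SE 0.11, limma adjusted p = 0.0123). Its other probe sets, 209636_at and 211524_at, lay at low signal, with means over all arrays of 4.96 and 3.12, and had log2 differences of 0.25 and 0.19 that did not pass (limma adjusted p = 0.250 and 0.541 in the fit of all probe sets). The RELB call was lost without siRRM1 replicate 2 (log2 0.64, adjusted p = 0.0507) and the NFKB2 call without scramble replicate 1 (log2 0.53, adjusted p = 0.0648).

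REL encodes c-Rel, a transactivating subunit used mainly in lymphoid cells, and was the one member that fell. By 206036_s_at it had log2 signals of 5.99 and 5.75 in siRRM1 against 6.97 and 6.76 in scramble, with no overlap. This was a fall to 50.1% of the scramble level (log2 -0.996, SE 0.12, limma adjusted p = 0.00281). Its second probe set, 206035_at, is annotated to the same transcript and did not show the fall. It had 5.11 and 4.59 in siRRM1 against 5.19 and 4.80 in scramble, groups that overlapped (log2 -0.14, 95% interval -0.58 to 0.30). That probe set lay below the signal filter, with a mean of 4.90, so the call for REL rests on 206036_s_at. With the mean of both probe sets as the value of the gene, the difference was -0.57 (adjusted p = 0.0385).

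The 2 subunits of the classical p50 and p65 dimer, NFKB1 and RELA, did not pass the threshold. NFKB1 had 7.17 and 7.08 in siRRM1 against 6.99 and 6.89 in scramble (log2 0.18, 95% interval -0.036 to 0.398, limma adjusted p = 0.222). RELA overlapped between the groups, at 7.55 and 7.86 in siRRM1 against 7.56 and 7.63 in scramble (log2 0.11, 95% interval -0.16 to 0.38, limma adjusted p = 0.552). The second RELA probe set, 209878_s_at, had a log2 difference of 0.099 (limma adjusted p = 0.659 in the fit of all probe sets).

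NFKB2, which rose like RELB, and REL, which fell, are the called subunits with a window in the sequence table, and the sequence around their start sites is shown, from RefSeq (GRCh38.p14), 250 bases before to 50 after an annotated start. The 2 NFKB2 windows lie on the plus strand at chr10:102394328-102394627 and chr10:102395455-102395754, and the REL window on the plus strand at chr2:60881324-60881623. Capitals mark matches to the kappaB consensus, the decamer NF-kappaB dimers bind, searched on both strands.
NFKB2 first window: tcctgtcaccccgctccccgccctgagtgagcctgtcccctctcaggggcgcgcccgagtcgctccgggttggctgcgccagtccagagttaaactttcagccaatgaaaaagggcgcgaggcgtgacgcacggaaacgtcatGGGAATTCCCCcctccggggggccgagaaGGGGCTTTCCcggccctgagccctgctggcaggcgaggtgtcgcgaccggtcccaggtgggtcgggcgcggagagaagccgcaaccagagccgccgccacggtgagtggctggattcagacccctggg
NFKB2 second window: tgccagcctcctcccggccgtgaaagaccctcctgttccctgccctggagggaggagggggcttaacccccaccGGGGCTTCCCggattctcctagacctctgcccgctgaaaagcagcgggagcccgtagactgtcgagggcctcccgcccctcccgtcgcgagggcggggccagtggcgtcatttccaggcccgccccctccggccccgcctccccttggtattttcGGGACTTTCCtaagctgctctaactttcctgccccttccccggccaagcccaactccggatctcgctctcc
REL: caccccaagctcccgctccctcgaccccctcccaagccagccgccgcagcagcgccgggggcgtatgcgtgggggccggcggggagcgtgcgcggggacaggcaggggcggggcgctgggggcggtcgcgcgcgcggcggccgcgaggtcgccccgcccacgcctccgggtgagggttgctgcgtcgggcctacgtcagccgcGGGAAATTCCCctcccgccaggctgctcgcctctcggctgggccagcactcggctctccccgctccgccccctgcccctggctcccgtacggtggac
Of the 3 windows of NFKB2 in the table, these are the ones with a match. The first holds 3 matches, of which those that start at -107 and -106 from the start site overlap, and the second holds 2, at -176 and -21. In REL the 2 matches overlap, at -47 and -46. Both the transcript that rose and the one that fell thus carry matches close to the start. A match is a description of the letters and does not show binding.

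The feedback inhibitors and co-regulators showed the largest change. TNFAIP3 encodes A20, an enzyme that edits ubiquitin chains and shuts off signalling from receptors to the pathway's kinases. Its log2 signals by 202644_s_at were 8.13 and 8.45 in siRRM1 against 6.79 and 6.70 in scramble. The groups were far apart relative to the spread within them, and TNFAIP3 rose 2.91-fold (log2 1.54, SE 0.13, limma adjusted p = 0.00106). The second probe set, 202643_s_at, had 6.44 and 6.73 in siRRM1 against 5.40 and 5.20 in scramble, and also rose (log2 1.29, limma adjusted p = 0.00246 in the fit of all probe sets). Its mean in scramble, 5.30, was below the signal filter.

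TRAF1, an adaptor of TNF receptors, had 6.21 and 6.47 in siRRM1 against 5.88 and 5.81 in scramble. It rose 1.41-fold (log2 0.50, SE 0.11, limma adjusted p = 0.0232). This is the least stable of the 5 calls, since it was lost without siRRM1 replicate 2 (log2 0.36, adjusted p = 0.108). Leaving out either scramble array also ended it, with differences of 0.53 and 0.46 (adjusted p = 0.0760 and 0.0845). NFKBIA, the inhibitor that resets the pathway after each signal, had 9.44 and 9.61 in siRRM1 against 9.02 and 9.29 in scramble. Its groups did not overlap but the difference did not pass (log2 0.37, 95% interval -0.0074 to 0.753, limma adjusted p = 0.160). NFKBIE, a related inhibitor, overlapped between the groups, at 6.75 and 6.56 in siRRM1 against 6.77 and 6.73 in scramble (log2 -0.09, limma adjusted p = 0.598).

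Of the 2 probe sets annotated to BCL3 and MIR8085 together, only 204908_s_at moved. BCL3 is an unusual member of the inhibitor family that acts in the nucleus with p50 or p52 homodimers. The probe set had log2 signals of 6.44 and 6.70 in siRRM1 against 5.56 and 5.86 in scramble, groups without overlap, and rose 1.81-fold (log2 0.86, SE 0.16, limma adjusted p = 0.0207 in the fit of all probe sets). The call was lost without siRRM1 replicate 2 (log2 0.72, adjusted p = 0.129) or scramble replicate 1 (0.70, adjusted p = 0.125). The other, 204907_s_at, lay at a mean of 5.24 with a log2 difference of 0.048 (95% interval -0.17 to 0.27, limma adjusted p = 0.844).

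The windows of TNFAIP3, the member with the largest change, and of NFKBIA, the inhibitor whose difference did not pass, are shown for comparison with those of the subunits. TNFAIP3 lies on the plus strand at chr6:137867009-137867308 and NFKBIA on the minus strand at chr14:35404700-35404999.
TNFAIP3: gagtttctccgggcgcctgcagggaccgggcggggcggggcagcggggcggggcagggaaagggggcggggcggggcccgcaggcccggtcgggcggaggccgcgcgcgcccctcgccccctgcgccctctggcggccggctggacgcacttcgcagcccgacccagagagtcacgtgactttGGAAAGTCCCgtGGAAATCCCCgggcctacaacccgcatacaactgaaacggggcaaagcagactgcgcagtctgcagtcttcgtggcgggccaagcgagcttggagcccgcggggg
NFKBIA: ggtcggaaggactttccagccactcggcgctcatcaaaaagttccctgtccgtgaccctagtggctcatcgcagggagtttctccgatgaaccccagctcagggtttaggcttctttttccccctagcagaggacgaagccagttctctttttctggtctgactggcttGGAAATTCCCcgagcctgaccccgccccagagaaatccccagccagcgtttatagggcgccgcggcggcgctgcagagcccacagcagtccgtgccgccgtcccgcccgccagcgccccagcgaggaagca
TNFAIP3 has 2 separate matches that start at -67 and -55, and NFKBIA has 1 at -81, all of them on the strand opposite to the gene. RefSeq windows were found for 8 of the 10 members. None was available for RELB and NFKBIE, so these were not searched. Those 8 have 14 windows, of which 7 held a match, 50% against 11.3% of 35114 windows of the same length over all genes. The members were chosen as genes of this pathway and windows of the same gene count separately, so this excess is not an independent finding. The genes with a match were NFKB1, NFKB2, REL, NFKBIA, TNFAIP3 and BCL3, and no match was found in the 2 windows of RELA or the 3 of TRAF1.  Members that passed the threshold and members that did not are on both sides of this division.

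**Figure D2:**
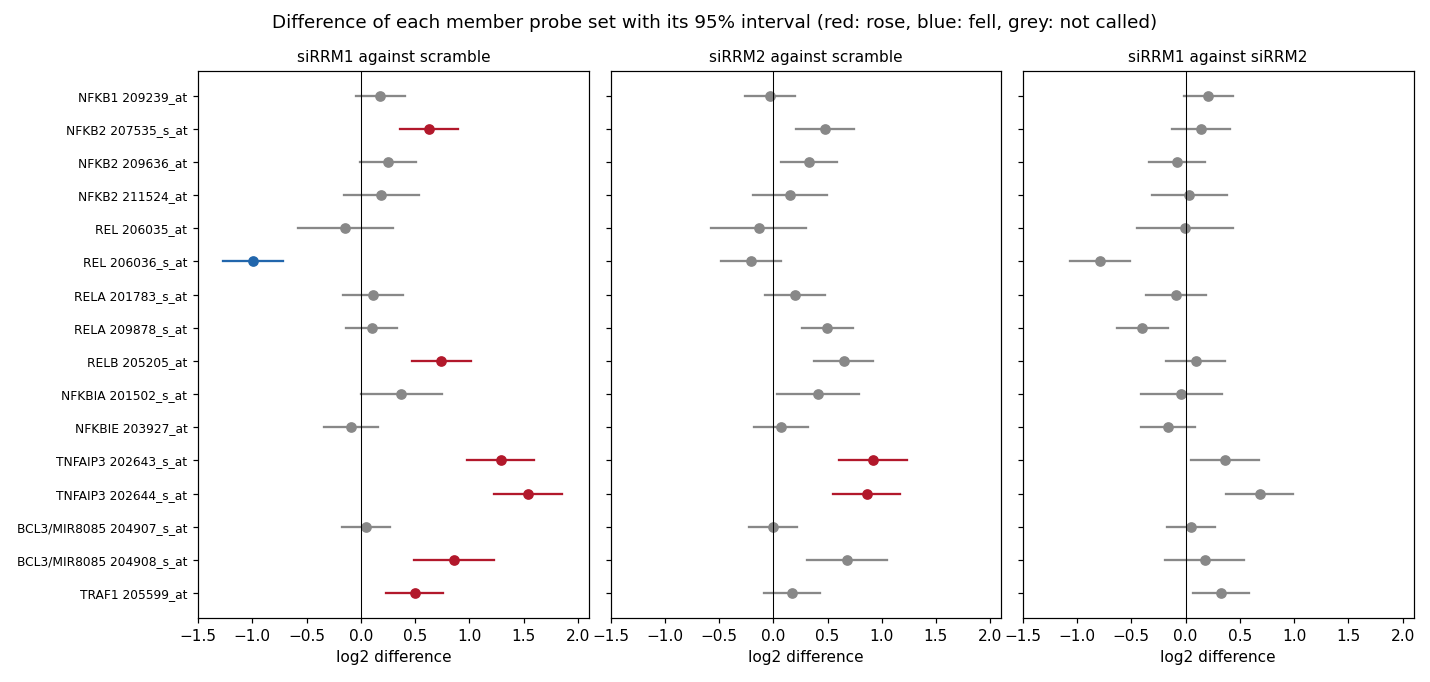
Log2 difference of each member probe set (points) with its 95% interval (lines) from the limma fit of all probe sets, for each knockdown against scramble (left and middle) and between the knockdowns (right). In siRRM1 against scramble 6 probe sets rose and 206036_s_at of REL fell, in siRRM2 against scramble the 2 TNFAIP3 probe sets rose, and between the knockdowns none passed.

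The siRRM2 comparison asked the same of the small reductase subunit. TNFAIP3 and RELB rose and none of the 9 members fell, 2 called beside 2.52% of all genes tested (2% higher and 0.517% lower). The median change of the 9 was 0.20, against -0.0033 over all genes tested, and groups did not overlap for 7 of the 9, beside 54.7% of all genes, and 6 of these were higher in siRRM2, beside 27.1%. In the fit of all probe sets, 2 of 16 member probe sets were called, beside 0.678% of all probe sets. Both comparisons use the same 2 scramble arrays.

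TNFAIP3 had log2 signals of 7.49 and 7.73 in siRRM2 against 6.79 and 6.70 in scramble, without overlap. It rose 1.81-fold (log2 0.86, SE 0.13, limma adjusted p = 0.0250), and its second probe set also rose (log2 0.92, limma adjusted p = 0.0359 in the fit of all probe sets). RELB had 6.62 and 6.49 in siRRM2 against 6.00 and 5.81 in scramble and rose 1.57-fold (log2 0.65, SE 0.11, limma adjusted p = 0.0340). In the fit of all probe sets, with more tests, RELB missed the threshold (adjusted p = 0.0569). Neither call held when any one siRRM2 or scramble array was left out. The adjusted p was then 0.0666 to 0.133 for TNFAIP3 (log2 0.74 to 0.98) and 0.0810 to 0.190 for RELB (log2 0.56 to 0.74).

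Among the other members of the gene fit in siRRM2, NFKB2 came closest. It had 6.85 and 6.68 in siRRM2 against 6.19 and 6.38 in scramble, with no overlap (log2 0.48, SE 0.11, limma adjusted p = 0.0708). In the fit of all probe sets its limma adjusted p was 0.120, above those of 204908_s_at and of 209878_s_at of RELA. The BCL3 and MIR8085 probe set 204908_s_at had 6.22 and 6.57 in siRRM2 against 5.56 and 5.86 in scramble (log2 0.68, limma adjusted p = 0.110 in the fit of all probe sets). NFKBIA had 9.34 and 9.79 in siRRM2 against 9.02 and 9.29 in scramble (log2 0.41, limma adjusted p = 0.211), with the 2 siRRM2 arrays further apart than those of any other group for this gene.

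The RELA probe sets differed from each other in siRRM2. By 201783_s_at, RELA had 7.82 and 7.77 in siRRM2 against 7.56 and 7.63 in scramble (log2 0.20, limma adjusted p = 0.373). By 209878_s_at it had 7.11 and 7.07 in siRRM2 against 6.56 and 6.62 in scramble, tight pairs with no overlap (log2 0.50, limma adjusted p = 0.0793 in the fit of all probe sets). REL stood at 6.70 and 6.62 in siRRM2 against 6.97 and 6.76 in scramble (log2 -0.21, 95% interval -0.48 to 0.063, limma adjusted p = 0.361). The remaining members, TRAF1 (log2 0.17), NFKBIE (0.070) and NFKB1 (-0.029), had limma adjusted p of 0.411, 0.762 and 0.899.

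The comparison of siRRM1 with siRRM2 tested whether the knockdowns differed. Under limma 0 of 9 members passed, beside 0.164% of all genes tested (0.126% higher and 0.0378% lower), and 3 were under 0.05 without adjustment. Of the 16 member probe sets 0 passed, beside 0.0314% of all probe sets. With a trend in the variance model 1 member passed and with the replicate number as a block 2 did. REL was the nearest to the threshold, at 5.99 and 5.75 in siRRM1 against 6.70 and 6.62 in siRRM2 (log2 -0.79, 95% interval -1.06 to -0.52, limma adjusted p = 0.0656). TNFAIP3 had 8.13 and 8.45 in siRRM1 against 7.49 and 7.73 in siRRM2 (log2 0.68, 95% interval 0.37 to 0.99, limma adjusted p = 0.139). TRAF1 had 6.21 and 6.47 in siRRM1 against 6.02 and 6.02 in siRRM2 (log2 0.32, 95% interval 0.071 to 0.574, limma adjusted p = 0.387). The groups did not overlap for these genes or for NFKB1 (log2 0.21, limma adjusted p = 0.507), 4 of 9 beside 40.8% of all genes, and 3 of these were higher in siRRM1, beside 18.9%.

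RELB and NFKB2 were higher than scramble in every knockdown array, as were TNFAIP3, TRAF1, NFKBIA and 204908_s_at. Of all genes tested, 28.4% were higher without overlap in siRRM1 and 27.1% in siRRM2, against the same scramble arrays. The share higher in both was not computed, so nothing is read from this pattern. For RELB and NFKB2 the difference between the knockdowns was small. RELB differed by 0.092 (95% interval -0.17 to 0.36, limma adjusted p = 0.850) and NFKB2 by 0.15 (95% interval -0.12 to 0.41, limma adjusted p = 0.731). These intervals do not show that the knockdowns act alike on them. RELA (-0.089), NFKBIA (-0.040) and NFKBIE (-0.16) had limma adjusted p of 0.860, 0.960 and 0.667. The second RELA probe set, 209878_s_at, had 6.78 and 6.60 in siRRM1 against 7.11 and 7.07 in siRRM2, without overlap (log2 -0.40, limma adjusted p = 0.391 in the fit of all probe sets).

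**Figure D3:**
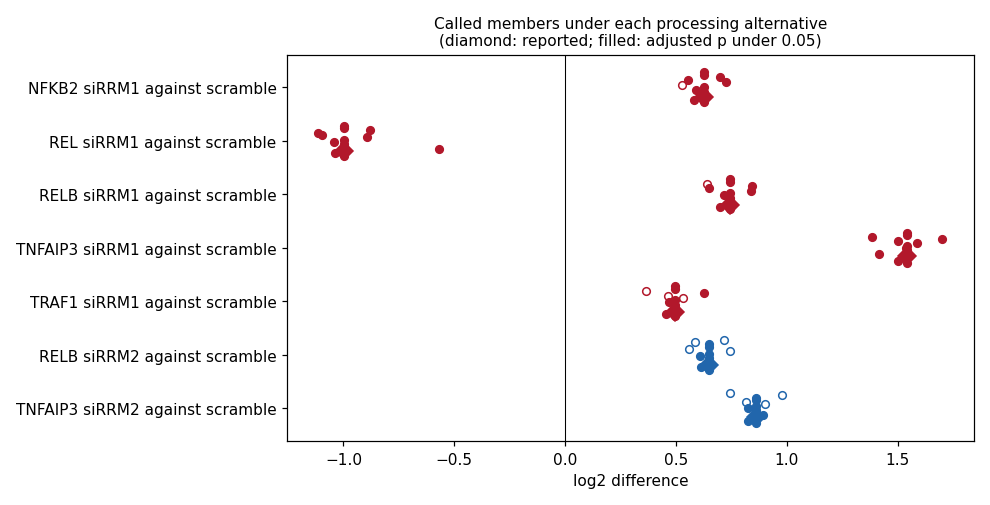
Log2 difference (horizontal axis) of each member called in siRRM1 (red) or siRRM2 (blue) against scramble, as reported (diamonds) and under each processing alternative or with an array left out (circles), with filled symbols where the adjusted p was under 0.05. TNFAIP3 and REL in siRRM1 stayed filled under each setting that tested them, at 1.38 to 1.70 and -1.11 to -0.57.

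The other genes of the pathway were taken from lists of receptors, adaptors and kinases, further inhibitors, ligands and target genes. Of 96 genes listed, 79 had a probe set of their own and 49 passed the filter. In siRRM1 against scramble, 9 rose and 1 fell, 10 of 49 beside the 15.5% of all genes. Leaving out siRRM1 replicate 2 or scramble replicate 1 lowered this count, and it also lowered the number called over all genes. Of the 18 target genes tested 6 rose and 1 fell, beside 8.22% and 7.33% of all genes. Their median change was 0.17, against -0.0092 over all genes tested, and no difference between the lists was tested.

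CCL4, a chemokine, had log2 signals of 9.97 and 10.54 in siRRM1 against 7.20 and 7.91 in scramble (log2 2.70, SE 0.27, limma adjusted p = 0.00154). TAP1, the peptide transporter of antigen presentation, rose by log2 0.67 (limma adjusted p = 0.00397), and IER3, an early response gene that modulates cell death, rose by 1.67 (limma adjusted p = 0.00522). All of CCL4, TAP1 and IER3 kept their calls under each alternative tried, including each array left out. The other risen targets were the cyclin CCND2 (log2 0.55), the adhesion molecule ICAM1 (0.59) and CD83 (0.70), a surface marker of activated lymphoid and dendritic cells. The CD83 mean in scramble, 5.43, was just below the filter, so CD83 was tested through the groups where it is higher. Without siRRM1 replicate 2 the calls of CCND2, CD83 and ICAM1 were lost (adjusted p = 0.0506, 0.0686 and 0.169). ICAM1 was also lost without siRRM1 replicate 1 or scramble replicate 1 (log2 0.63 and 0.39, adjusted p = 0.0777 and 0.166). The target that fell, IRF4, a transcription factor that plasma cells depend on, lay at 10.76 and 10.40 in siRRM1 against 11.38 and 11.04 in scramble. Its change of -0.63 (limma adjusted p = 0.0449) was lost without siRRM1 replicate 2 (log2 -0.45, adjusted p = 0.224), and likewise without scramble replicate 1 (log2 -0.46, adjusted p = 0.197). With the mean of its probe sets it was -0.36 (adjusted p = 0.138), and quantile normalization, no filter or a fit without either siRRM2 array also ended the call (adjusted p = 0.0547, 0.0523 and 0.0506).

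The lists of signalling proteins had 1 call each in siRRM1, beside the 15.5% of all genes, from which nothing is read about these lists. Of 7 receptors, TLR4, the receptor for bacterial lipopolysaccharide, rose (log2 0.66, limma adjusted p = 0.0123) and 0 fell. Of 16 adaptors and kinases, RBCK1, a subunit of the linear ubiquitin ligase complex, rose (log2 0.39, limma adjusted p = 0.0217) and 0 fell. The kinase subunits CHUK, IKBKB and IKBKG, which phosphorylate the inhibitors, were among the 15 that did not pass. Of 6 further inhibitors, PDLIM2, which targets nuclear RELA for degradation, rose (log2 0.51, limma adjusted p = 0.0133). The TLR4 call was lost without scramble replicate 1 (adjusted p = 0.0586). The PDLIM2 call was lost without siRRM1 replicate 2 or scramble replicate 1 (adjusted p = 0.0740 and 0.0617), and RBCK1 without either of these or scramble replicate 2 (adjusted p = 0.0987, 0.0867 and 0.0815) or with the mean of its probe sets (adjusted p = 0.0688). Under limma 0 of 2 ligands passed, with 1 under 0.05 without adjustment, IL1B (log2 0.37, limma adjusted p = 0.152).

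In siRRM2 against scramble, 2 of 49 pathway genes rose and 0 fell, beside 2.52% of all genes. They were the targets CCL4, at 8.96 and 9.37 in siRRM2 against 7.20 and 7.91 in scramble (log2 1.61, limma adjusted p = 0.0292), and TAP1 (log2 0.47, limma adjusted p = 0.0383). Without scramble replicate 1 the value for CCL4 was 1.26 (adjusted p = 0.0984), and its call was also lost without either siRRM2 array. TAP1 lost its call without any one siRRM2 or scramble array (adjusted p = 0.118 to 0.176), and with arrays centred on their medians or no filter (adjusted p = 0.0536 and 0.0519). PDLIM2 (log2 0.46, limma adjusted p = 0.0511), TLR4 (log2 0.57, adjusted p = 0.0546), RBCK1 (log2 0.30, adjusted p = 0.108) and IL1B (log2 0.15, adjusted p = 0.645) had the smallest p of the lists with no call. Between the knockdowns 0 of 49 passed under limma, beside 0.164% of all genes. The smallest p of each list was that of CD83 (log2 0.60, limma adjusted p = 0.139), TNFRSF17 (-0.25, adjusted p = 0.477), TAB2 (-0.18, adjusted p = 0.601), TNIP2 (0.16, adjusted p = 0.596) and IL1B (0.22, adjusted p = 0.709).

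**Figure D4:**
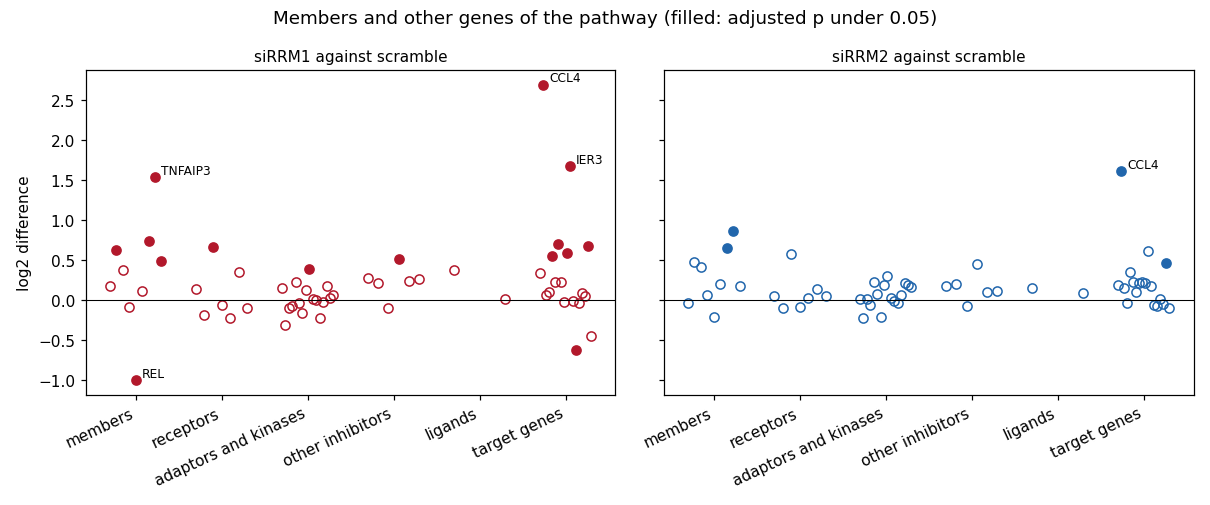
Log2 difference (vertical axis) of the 9 members tested and of the other pathway genes by list, in siRRM1 against scramble (left) and siRRM2 against scramble (right). Each point is 1 gene and filled points had an adjusted p under 0.05. Called genes that changed by over 0.9 are named, such as CCL4 at 2.70 in siRRM1 and 1.61 in siRRM2.

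The genes whose pattern over the 6 arrays was most like that of TNFAIP3 were found as the smallest root mean square distance between log2 values, each gene centred on its own mean. The nearest was TNFRSF10B, a receptor for the death ligand TRAIL, at a distance of 0.099. Its log2 signals were 10.86 and 11.10 in siRRM1, 10.36 and 10.58 in siRRM2 and 9.61 and 9.66 in scramble. FHL2, a LIM domain protein, followed at 0.107, then SDC2, a cell surface proteoglycan (0.110), ARHGEF3 (0.115), and ANKRA2, an ankyrin repeat protein (0.120). Like TNFAIP3, each of these genes was highest on siRRM1 replicate 2, as follows from their choice by likeness to it over these arrays.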

How the data were processed

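The values are log2 signals per probe set, as deposited by the authors. How they were summarised and normalized is not stated in the labels used here, and the log base was read from the values. No further scaling was applied. One further control transcript for RNA quality is not reported here. Per the labels' protocols, biotinylated cRNA was made from total RNA. In the platform annotation 19070 probe sets had 1 gene symbol, 1043 several and 2164 none, and no gene was named from several. The filter on low values was the 40th percentile of probe set means.

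All 6 arrays entered the gene fit and the fit of all probe sets (limma 3.58.1, R 4.3.3, lmFit and eBayes). The gene fit had 3 residual and 4.61 prior degrees of freedom. On simulated data for siRRM1 against scramble, it recovered 39% of changes of log2 0.5 and 80% of changes of log2 1, with 4 false calls. A gene that did not pass is thus not shown to be unchanged. SE and 95% intervals come from whichever moderated fit gave the value, and p-values are two-sided.

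The members and lists were chosen with earlier results of these data known. The naming rule took all members, RRM1 and RRM2, up to 3 called genes per pathway list and direction with the smallest adjusted p (the smallest p where none was called), and the 5 genes nearest to the member that changed most in siRRM1. CCND2, ICAM1 and CD83 in siRRM1, the 3 kinase subunits and the cell type markers were named after their values were seen. Alternatives were other scalings, filters, probe set choices and variance models, only the compared groups, a replicate block and each array left out.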

Additional observations from a re-analysis of the deposited data

How the results depend on the processing

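Of 360 member values recomputed under alternatives, 332 kept direction and side of the threshold, 13 lost the call, 6 gained one and 9 changed sign. Leaving out 1 array at a time, members called numbered 3 to 5 in siRRM1 against scramble, 0 to 2 in siRRM2 against scramble and 0 between the knockdowns. Member probe sets called were 3 to 6, 0 to 2 and 0, and pathway genes called were 4 to 12, 0 to 3 and 0. The shares of all probe sets called were not computed for these settings or for the replicate block below. Nothing is therefore read from the probe set counts. The counts over all genes moved as well, with 312 to 1234 called in siRRM1 against scramble (1234 with all arrays), 21 to 206 in siRRM2 against scramble (200) and 2 to 16 between the knockdowns (13). With the filter at the 60th percentile only 4 members were tested, and 1 was called in each comparison with scramble. The shares of all genes called at that filter were 22.1% in siRRM1 and 4.15% in siRRM2. For pathway genes in siRRM2, 1 was called with median centring or no filter, and 4 with the mean of all probe sets or with a trend in eBayes. Of all genes, siRRM2 calls were then 2.23% (median centring), 1.43% (no filter), 2.94% (mean of all probe sets) and 4.23% (trend). The trend also called 1 member between the knockdowns, REL, and 336 genes in siRRM2 and 42 between the knockdowns. The filter at the 60th percentile called 4 genes between the knockdowns. NFKB2 was not tested with the mean of all probe sets.

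The labels do not say that replicate numbers pair arrays. Deviations of same-numbered arrays correlated across genes at r = 0.21 to 0.38, with only 2 pairs per comparison. With the replicate block, 4 members, 5 member probe sets and 5 pathway genes were called in siRRM2 against scramble, and 2, 1 and 4 between the knockdowns (REL and TNFAIP3 among the members). NFKBIA was called in both knockdowns under the block (adjusted p = 0.0266 and 0.0409) and NFKB2 in siRRM2 (0.0380). In siRRM2 the block also called RELB, 204908_s_at of BCL3 and MIR8085 (adjusted p = 0.0100) and 209878_s_at of RELA (0.0417) among the probe sets. The block called 1904, 622 and 153 of all genes in the comparisons in the same order.

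Sign changes came only in uncalled values with an array left out. These ranges were -0.041 to 0.265 (RELA) and -0.187 to 0.0070 (NFKBIE) in siRRM1, -0.085 to 0.026 (NFKB1) and -0.0045 to 0.145 (NFKBIE) in siRRM2, and -0.243 to 0.0637 (RELA), -0.0093 to 0.194 (RELB) and -0.264 to 0.184 (NFKBIA) between the knockdowns. The causes were not tested.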
